A study of Mus musculus with 3 samples.

Results

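The subject here is a small set of liver microRNAs whose genes stand in the same clusters as let-7 genes: miR-99a-5p, miR-99b-5p, miR-100-5p, miR-125a-5p and miR-125b-5p. Its members were all reads assigned to the 6 mouse precursors Mir99a, Mir99b, Mir100, Mir125a, Mir125b-1 and Mir125b-2, out of 1174 precursors searched. The 5 guide strands made up 5 of the 382 miRNA entries that come from neither miR-122 nor let-7 genes, called non-target miRNAs below. The reads came from the liver of C57BL/6 mice, a common inbred strain, collected 4 weeks after the animals received scAAV9, an adeno-associated virus vector of the self-complementary kind. The groups were TuD-miR-122 (vector with a decoy against miR-122), TuD-let-7 (vector with a decoy against let-7) and mock (vector with no decoy), so all 3 groups carried the vector and none was left uninjected. A Tough Decoy (TuD) is a hairpin transcript that holds its target miRNA on exposed binding sites, and the study asked what such decoys do to the stability and integrity of miRNAs. Each group was 1 library, and the number, age and sex of the animals behind it were not given in the sources used here. No difference below therefore has a replicate check, no test between groups was made, and every interval is a 95% interval for counting error only.

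In many animals a let-7 gene is transcribed together with a gene of the miR-99/100 family and a gene of the miR-125 family, and each miRNA is then cut out of the shared transcript as a separate hairpin. The miR-99/100 guides are known to repress mTOR, a kinase that drives growth, and the miR-125 guides are the vertebrate counterparts of lin-4, which acts beside let-7 in the timing of larval development in Caenorhabditis elegans. One arm of each hairpin, the guide, is kept by an Argonaute protein, while the other, the passenger, is mostly degraded. Bases may later be added to a guide's 3′ end (tailing) or removed from it (trimming). A decoy against let-7 is directed at the let-7 guide and not at the shared transcript, so these clusters hold targeted and untargeted miRNAs side by side.

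The guides fell into 2 groups by their seed, the bases from position 2 to 8 that pair with target mRNAs. The mature sequences are shown because the groups are so alike inside that single bases decide to which guide a read belongs. They are those of RefSeq (GRCm38.p6), written 5′ to 3′ with the seed in capitals.

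miR-99a-5p: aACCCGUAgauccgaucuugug
miR-99b-5p: cACCCGUAgaaccgaccuugcg
miR-100-5p: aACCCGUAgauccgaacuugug
miR-125a-5p: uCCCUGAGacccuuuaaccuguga
miR-125b-5p: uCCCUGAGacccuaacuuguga

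The first 3 guides shared the seed ACCCGUA and the other 2 the seed CCCUGAG. miR-99a-5p and miR-100-5p differed at 1 base, T16A counted from the 5′ end in DNA letters (base of miR-99a-5p, position, base of miR-100-5p). Their first 15 bases were identical. miR-99b-5p differed from miR-99a-5p at 4 bases, A1C, T11A, T16C and T21C. miR-125a-5p (24 nt) and miR-125b-5p (22 nt) were identical over their first 13 bases and diverged after them. Since 1 miscalled base turns miR-99a-5p into miR-100-5p, and miR-99a-5p was the more abundant, the level of miR-100-5p may include misread miR-99a-5p. How many such misread copies the 1692 reads of miR-100-5p in TuD-miR-122, 602 in TuD-let-7 and 1542 in mock hold was not tested.

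The 6 precursors lay in 3 clusters, all on the plus strand of GRCm38. On chromosome 16, Mir99a (chr16:77598936-77599000), Mirlet7c-1 (chr16:77599657-77599750) and Mir125b-2 all lay in introns of the noncoding RNA gene Mir99ahg. On chromosome 17, Mir99b (chr17:17830188-17830257) and Mirlet7e (chr17:17830352-17830444) lay in an intron of the protein-coding gene Spaca6, and Mir125a (chr17:17830812-17830879) overlapped an exon of Spaca6. On chromosome 9, Mir100 (chr9:41531425-41531504), Mirlet7a-2 (chr9:41536716-41536811) and Mir125b-1 (chr9:41581926-41582002) lay in introns of the noncoding RNA genes 3110039I08Rik and Gm49317. The mature let-7a-5p and let-7c-5p are not specific to these clusters, because let-7a-5p also comes from Mirlet7a-1 on chromosome 13 and let-7c-5p from Mirlet7c-2 on chromosome 15.

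miR-125b-5p is made by both Mir125b-1 and Mir125b-2 with the same 22-nt sequence, so guide reads of up to 22 nt cannot be divided between chromosomes 9 and 16. Guide reads of 23 nt ending in T, which matched a precursor, numbered 164 in TuD-miR-122, 66 in TuD-let-7 and 217 in mock. An added U would read the same, so the origin of these few reads was not tested. Their passenger arms differ in sequence and can be told apart. miR-125b-2-3p, the passenger of the chromosome 16 copy, had 126 reads in TuD-miR-122, 66 in TuD-let-7 and 133 in mock. miR-125b-1-3p, the passenger of the chromosome 9 copy, had 9, 4 and 10 reads in those libraries. The chromosome 16 copy thus held 93.3% of the miR-125b passenger reads in TuD-miR-122, 94.3% in TuD-let-7 and 93.0% in mock. Over all 3 libraries the share was 93.4% (exact Clopper-Pearson interval 90.2 to 95.8, 325 of 348 reads). A passenger count is not a measure of transcription, since the arms may be kept to different extents.

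The libraries held 3681585 reads (TuD-miR-122), 2066892 reads (TuD-let-7) and 3450317 reads (mock), of which 72.0%, 73.1% and 78.5% were assigned to miRNAs. Levels are given as RPM, the reads of a miRNA per 1000000 non-target miRNA reads, on totals of 1452397, 487681 and 1377696 reads in the same order. The TuD-let-7 library was thus the shallowest, and 3 reads, taken as the detection floor, stood for 6.15 RPM there, against 2.07 RPM in TuD-miR-122 and 2.18 RPM in mock. That library also stood apart in its mismatches: allowing 1 internal mismatch raised its non-target reads by 24.3%, against 8.48% in TuD-miR-122 and 7.72% in mock. As a check of the liver label, 5 of 5 hepatocyte marker miRNAs were read in every library, with sums in TuD-miR-122 and TuD-let-7 of 0.808 and 2.49 times that in mock. Most of these reads were miR-122-5p, which lies outside the total used for scaling. The other markers did not move together: miR-194-5p had 56638 RPM in TuD-miR-122 and 88380 RPM in TuD-let-7, against 65497 RPM in mock, while miR-802-5p had 575 and 201 RPM, against 1131 RPM in mock.

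Markers of other cell types also differed between the libraries. miRNAs known from skeletal muscle summed to 931 RPM in TuD-miR-122 and 213 RPM in TuD-let-7, against 9832 RPM in mock, with 4 of 4 read and miR-133a-5p at 0 in TuD-let-7. Pancreas miRNAs (4 of 4 read) were at 13.5 times mock in TuD-miR-122 and 1.36 times in TuD-let-7, and those of the imprinted Dlk1-Dio3 cluster (4 of 4) at 14.5 and 3.44 times. The pancreas sum in TuD-let-7 was carried by miR-375-3p, with 103 RPM, against 50.8 RPM in mock. There miR-216a-5p had 28.7 RPM, against 26.9 RPM in mock, miR-216b-5p 8.20 against 8.71 and miR-217-5p 22.6 against 32.7. Stromal and stellate cell miRNAs (4 of 4) summed to 1.18 and 1.16 times mock, a sum carried by miR-143-3p, while miR-199a-3p had 3175 RPM in TuD-miR-122 and 1528 RPM in TuD-let-7, against 2656 RPM in mock. In the same order, erythroid miRNAs (2 of 2) were at 1.40 and 0.895 times mock, endothelial ones (2 of 2) at 1.21 and 0.925, immune ones (5 of 5) at 0.930 and 0.718, and neural ones (1 of 3 read) at 0.646 and 0.986. The 2 endothelial markers moved apart in TuD-let-7. There miR-126a-3p had 17528 RPM, against 16284 RPM in mock, and miR-126a-5p 4435 RPM, against 7464 RPM in mock. The part of all these cell type markers in the values below was not tested. In bulk liver RNA fewer cells of a type and less RNA per cell cannot be told apart.

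miR-125b-5p and miR-99a-5p were the major guides of the set in every library. Together the 5 guides stood at 20989 RPM in TuD-miR-122, 30335 RPM in TuD-let-7 and 21649 RPM in mock. miR-125b-5p supplied 45.2%, 47.7% and 46.0% of these reads, and miR-99a-5p supplied 36.6%, 40.9% and 38.5%. The remaining 3 guides divided the rest, with miR-125a-5p ahead of miR-100-5p and miR-99b-5p last in each library.

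miR-125b-5p had 9478 RPM in TuD-miR-122, 14475 RPM in TuD-let-7 and 9955 RPM in mock, which placed it 20th, 17th and 24th of 382 non-target miRNAs. miR-99a-5p had 7689, 12406 and 8343 RPM, at places 28, 19 and 27. For both, TuD-let-7 was the high library and TuD-miR-122 lay slightly below mock, with intervals of the 3 libraries that did not overlap. miR-125a-5p had 1873 RPM in TuD-miR-122, 1507 RPM in TuD-let-7 and 1683 RPM in mock, and was the only guide of the 5 with its lowest level in TuD-let-7. miR-100-5p had 1165, 1234 and 1119 RPM in the same order, and the intervals of its 3 levels overlapped. miR-99b-5p, the least abundant guide, had 784 RPM in TuD-miR-122 and 714 RPM in TuD-let-7, both above its 549 RPM in mock. In each of the 3 libraries the order of levels was miR-125b-5p, miR-99a-5p, miR-125a-5p, miR-100-5p and miR-99b-5p, and no pair of neighbours in that order had overlapping intervals within a library.

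**Figure D1:**
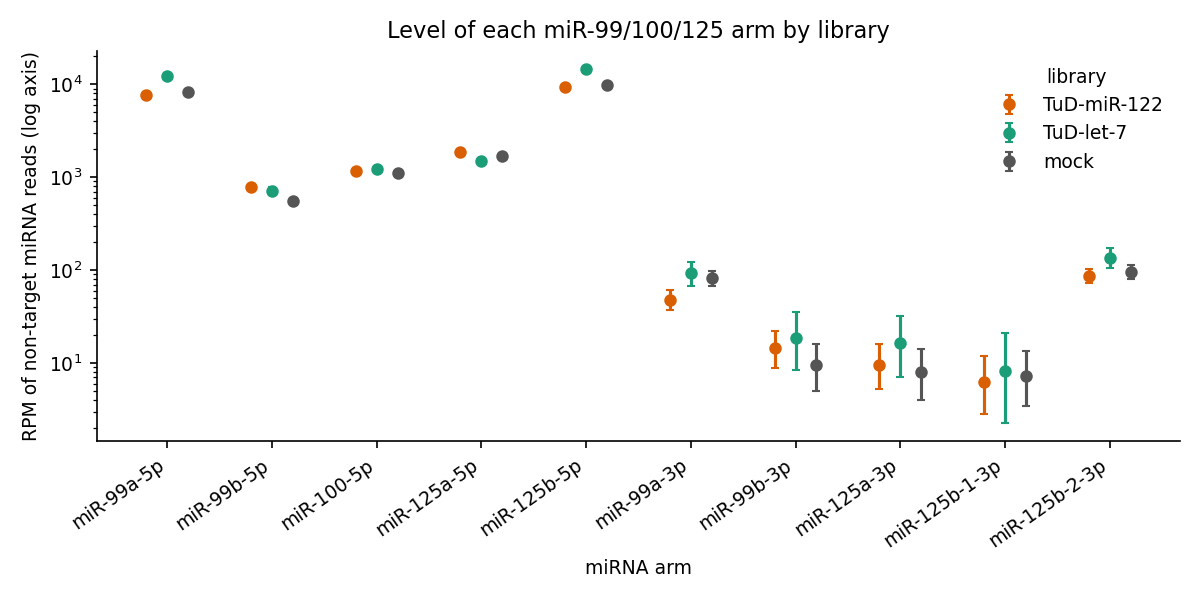
Level of each guide (names ending in 5p) and passenger (3p) arm in RPM of non-target miRNA reads, on a log axis, in the TuD-miR-122, TuD-let-7 and mock libraries, 1 library each; bars are 95% counting intervals and miR-100-3p, with at most 3 reads, is left out. miR-125b-5p and miR-99a-5p lie between 7689 and 14475 RPM with TuD-let-7 highest, while no passenger exceeds 136 RPM.

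In TuD-miR-122 against mock the summed level of the set was nearly the same, while the chromosome 17 guides were higher. The summed guides were at 0.970 times mock (0.954 to 0.985). miR-99a-5p was at 0.922 (0.898 to 0.946) and miR-125b-5p at 0.952 (0.930 to 0.975), so the 2 abundant guides were slightly lower on the non-target scale. miR-99b-5p stood at 1.43 times mock (1.30 to 1.57), miR-125a-5p at 1.11 (1.05 to 1.18) and miR-100-5p at 1.04 (0.971 to 1.12). miR-99b-5p and miR-125a-5p, the 2 guides of the chromosome 17 cluster, were higher than mock beyond counting error on every scale tried, and let-7e-5p of the same cluster was at 1.58 (1.49 to 1.68). miR-100-5p was also wholly above 1 when scaled to all miRNA reads (1.12, 1.05 to 1.20) or by size factors (1.09, 1.02 to 1.17). On all miRNA reads miR-99a-5p was at 0.992 (0.967 to 1.02) and miR-125b-5p at 1.03 (1.001 to 1.05), so the lower level of the abundant guides rested on the scale. A miRNA was called changed past 2-fold where the libraries compared held 100 reads of it or more and the whole interval of its ratio was above 2 or below 0.5. By that rule 0 of the 5 guides changed, where 18.6% of the 226 non-target miRNAs tested did. An interval wholly above 1 was found for 2 of 5 guides and one wholly below 1 for another 2, against 36.3% and 37.2% of all those tested. The guides' median ratio was 1.04, beside a median of 0.998 over all tested, of which the central 80% lay between 0.623 and 12.6.

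In TuD-let-7 against mock the 2 abundant guides were higher on the non-target scale and by size factors. They were lower on the 2 totals that include miR-122 and let-7 reads, so the direction rested on the scale. miR-99a-5p stood at 1.49 times mock (1.44 to 1.53) and miR-125b-5p at 1.45 (1.41 to 1.496). miR-99b-5p was at 1.30 (1.14 to 1.48) and miR-100-5p at 1.10 (1.002 to 1.21), while miR-125a-5p was lower, at 0.895 (0.823 to 0.973). The summed guides reached 1.40 times mock (1.37 to 1.43). By size factors miR-99a-5p was at 1.46 (1.41 to 1.51) and miR-125b-5p at 1.43 (1.39 to 1.47). Scaled instead to all reads, every one of the 5 guides was below mock in TuD-let-7: miR-99a-5p at 0.879, miR-125b-5p at 0.859, miR-99b-5p at 0.768, miR-100-5p at 0.652 and miR-125a-5p at 0.529. That scale multiplied every TuD-let-7 ratio to mock by 0.591 and set the median non-target miRNA at 0.582 times mock, or -0.78 on the log2 scale, against 0.984 on the non-target scale.

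By the 2-fold rule 0 of the 5 guides changed in TuD-let-7 against mock, where 7.81% of 192 non-target miRNAs did. An interval wholly above 1 was found for 4 of 5 guides and one wholly below 1 for the other, miR-125a-5p, against 33.9% and 34.4% of all tested. For miR-100-5p, 1 of those 4, the interval began at 1.002. By size factors that guide was at 1.08 (0.983 to 1.19), an interval that spans 1. The guides' median was 1.30, beside 0.984 over all tested, of which the central 80% lay between 0.538 and 1.71. Of the 192, 31 had a higher ratio than miR-99a-5p and 35 a higher one than miR-125b-5p. The 2 abundant guides therefore lay in the upper part of the spread of other miRNAs and not outside it.

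**Figure D2:**
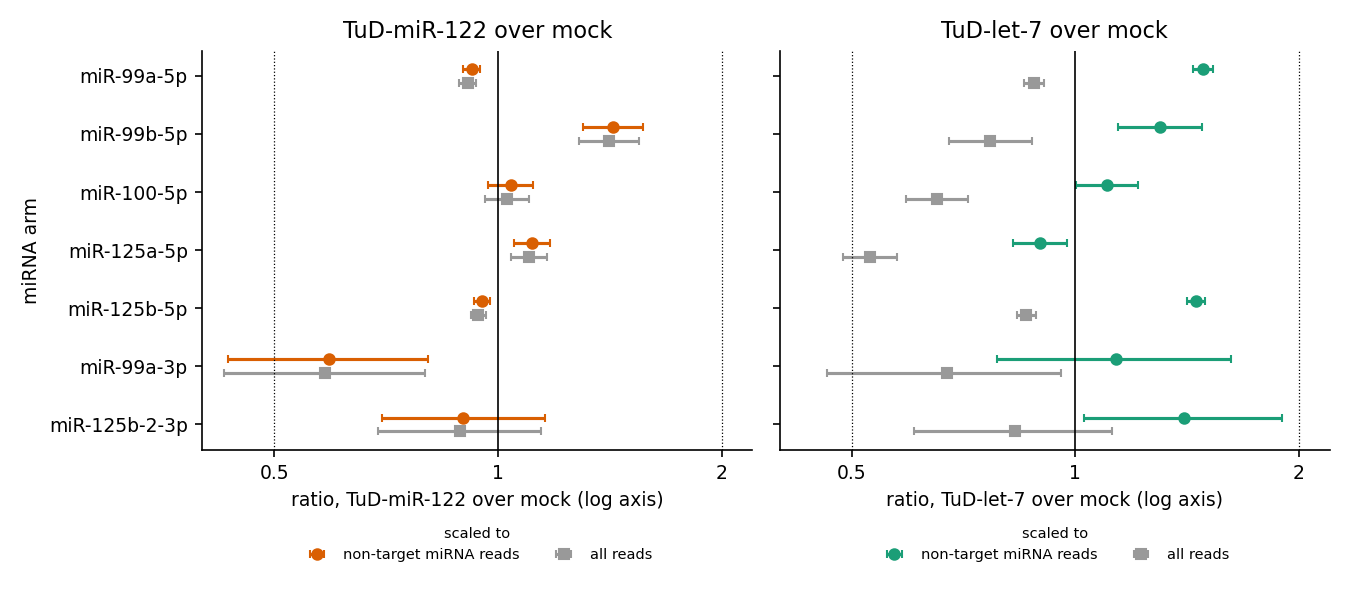
Ratio of each guide, and of the 2 passengers with most reads, in TuD-miR-122 over mock (left) and TuD-let-7 over mock (right), on a log axis; circles are scaled to non-target miRNA reads, squares to all reads, bars are 95% counting intervals and dotted lines mark 2-fold. On the right miR-99a-5p lies at 1.49 and miR-125b-5p at 1.45 by the circles and at 0.879 and 0.859 by the squares, while on the left the scales differ little.

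The decoy livers were also set against each other, since each lacks the other's decoy; both comparisons with mock above share the same mock library. miR-99a-5p was at 1.61 (1.56 to 1.66) and miR-125b-5p at 1.53 (1.48 to 1.57) in TuD-let-7 over TuD-miR-122. miR-100-5p was at 1.06 (0.964 to 1.16) and miR-99b-5p at 0.911 (0.805 to 1.03), both with intervals that span 1 on the non-target scale. miR-125a-5p was at 0.804 (0.741 to 0.873). No guide changed by the 2-fold rule (0 of 5), where 20.2% of 213 non-target miRNAs did. An interval wholly above 1 was found for 2 of 5 guides and one wholly below 1 for 1 of 5, against 34.7% and 42.7% of all tested, and the guides' median was 1.06, beside 0.929 over all tested. Scaled to all reads, miR-99a-5p was at 0.965 and miR-125b-5p at 0.913, so the direction of these too turned with the scale. By size factors miR-99a-5p stayed higher, at 1.51, as did miR-125b-5p, at 1.43. The result for miR-100-5p and miR-99b-5p also depended on the scale. On all reads they were at 0.634 (0.576 to 0.696) and 0.545 (0.482 to 0.615). With size factors miR-99b-5p was at 0.852 (0.754 to 0.962), while miR-100-5p, at 0.991 (0.902 to 1.09), had an interval that spans 1.

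The ratio of 2 miRNAs within a library does not depend on the scale, though it does depend on the matching rules. The ratio was taken for each let-7 guide and its cluster neighbours, under the main rules only. Reads that fitted several miRNAs equally, 4806 in TuD-let-7 and 8508 in mock, were left out of these quotients. How many of them were let-7 reads is not given here. On chromosome 16, let-7c-5p had 1.02 reads for each read of miR-99a-5p in TuD-let-7, against 3.24 in mock, which is 0.314 times mock (0.301 to 0.327). Per read of miR-125b-5p it had 0.873 reads in TuD-let-7, against 2.72 in mock, or 0.321 times mock (0.309 to 0.334). On chromosome 9, let-7a-5p had 9.37 reads per read of miR-100-5p in TuD-let-7, against 38.3 in mock, or 0.245 times mock (0.222 to 0.270). On chromosome 17, let-7e-5p had 1.11 reads per read of miR-99b-5p in TuD-let-7, against 2.21 in mock, or 0.503 times mock (0.423 to 0.597). Per read of miR-125a-5p it had 0.527 reads, against 0.721 in mock, or 0.730 times mock (0.634 to 0.840). All 5 quotients were lower in TuD-let-7 than in mock with intervals wholly below 1, and the quotients with let-7e-5p were the closest to 1.

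In TuD-miR-122, whose decoy is not directed at let-7, 3 of the same 5 quotients were above mock beyond counting error and the other 2 had intervals that span 1. let-7c-5p had 4.11 reads per read of miR-99a-5p, 1.27 times mock (1.23 to 1.31), and 3.34 per read of miR-125b-5p, 1.23 times mock (1.20 to 1.26). let-7e-5p had 1.03 reads per read of miR-125a-5p, 1.42 times mock (1.31 to 1.55), and 2.45 per read of miR-99b-5p, 1.11 times mock (0.992 to 1.24). let-7a-5p had 37.6 reads per read of miR-100-5p, 0.983 times mock (0.916 to 1.05). These values show how far such quotients differed between 2 libraries that both lacked a let-7 decoy. Reads of the let-7 passenger arms of these clusters were too few to compare, at 13 or fewer per library for let-7e-3p and at most 2 for let-7a-2-3p and let-7c-1-3p.

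**Figure D3:**
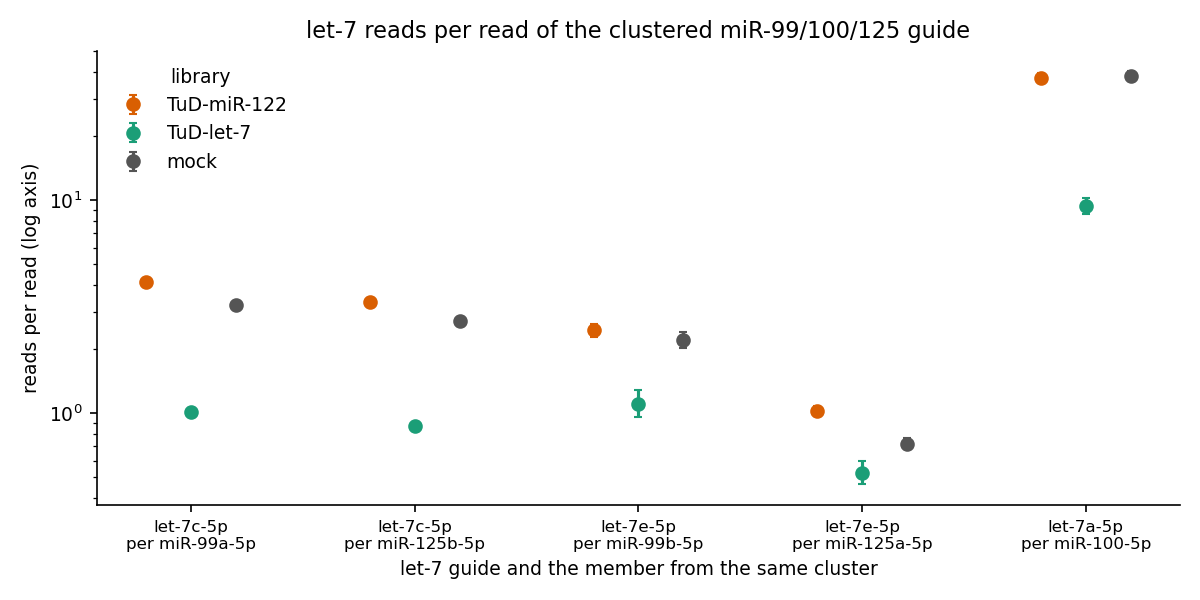
Reads of a let-7 guide per read of a non-let-7 guide from the same cluster, on a log axis, in the TuD-miR-122, TuD-let-7 and mock libraries; bars are 95% counting intervals. TuD-let-7 is the lowest library in all 5 pairs, from 0.245 times mock for let-7a-5p per miR-100-5p to 0.730 times mock for let-7e-5p per miR-125a-5p.

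Cluster neighbours that are not let-7 were compared in the same way. On chromosome 16, miR-125b-5p had 1.23 reads per read of miR-99a-5p in TuD-miR-122, 1.17 in TuD-let-7 and 1.19 in mock. Over mock this quotient was 1.03 (0.997 to 1.07) in TuD-miR-122 and 0.978 (0.937 to 1.02) in TuD-let-7, within counting error in both. On chromosome 17, miR-125a-5p had 2.39 reads per read of miR-99b-5p in TuD-miR-122 and 2.11 reads in TuD-let-7, against 3.07 in mock, or 0.779 (0.699 to 0.869) and 0.689 (0.590 to 0.804) times mock, so this quotient was lower than mock in both decoy libraries. In TuD-let-7 it was about as far from mock as that of let-7e-5p per miR-125a-5p, at 0.730 (0.634 to 0.840). On chromosome 9, miR-125b-5p had 8.14 reads per read of miR-100-5p in TuD-miR-122 and 11.7 reads in TuD-let-7, against 8.89 in mock. The guide reads of this last quotient cannot be assigned to 1 cluster, and most miR-125b passenger reads came from the chromosome 16 copy. miR-99a-5p, which shares all but 1 base with miR-100-5p, had 6.60, 10.05 and 7.45 reads per read of miR-100-5p. Over mock this quotient was 0.885 (0.822 to 0.954) in TuD-miR-122 and 1.35 (1.22 to 1.49) in TuD-let-7, so even these near-identical guides differed in their ratios to mock beyond counting error.

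Passenger arms were rare, with 125.5 guide reads per passenger read in TuD-miR-122, 112 in TuD-let-7 and 107 in mock over the whole set. Their summed level was 167 RPM in TuD-miR-122, 271 RPM in TuD-let-7 and 203 RPM in mock. miR-99a-3p had 70, 45 and 112 reads, and in TuD-miR-122 it was at 0.593 times mock (0.433 to 0.806). Its guide had 160 reads per passenger read in TuD-miR-122, 134 in TuD-let-7 and 103 in mock, a quotient 1.55 times mock in TuD-miR-122 (1.14 to 2.13). That value is 1 of 5 guide and passenger pairs examined, and it rests on 70 reads against 112. miR-125b-2-3p was close to its guide, with a ratio to mock of 0.899 (0.699 to 1.16) in TuD-miR-122 and of 1.40 (1.03 to 1.90) in TuD-let-7. Scaled to all reads, its TuD-let-7 ratio was 0.828. miR-99b-3p, miR-125a-3p and miR-125b-1-3p had 4 to 21 reads per library and miR-100-3p at most 3, so differences between libraries were not detectable at this depth.

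miRNAs related in sequence or seed did not share one pattern. miR-10a-5p, a relative of miR-99/100 encoded in the Hox gene clusters, had 2416 RPM in TuD-miR-122 and 1616 RPM in TuD-let-7, against 2380 RPM in mock. miR-10b-5p had 86.8 and 43.1 RPM, against 97.3 RPM in mock. Both were thus lowest in TuD-let-7, at 0.679 (0.627 to 0.734) and 0.443 (0.265 to 0.705) times mock, on the scale where miR-99a-5p was higher. miR-351-5p, an X-linked rodent miRNA with the miR-125 seed, had 179 RPM in TuD-miR-122 and 250 RPM in TuD-let-7, against 178 RPM in mock. By distance between the pairs of log2 ratios to mock, among 47 abundant candidates, the miRNAs closest to the miR-99/100 sum were miR-30a-5p (distance 0.13, ratios 0.909 and 1.34), miR-194-5p (0.18) and miR-378a-3p (0.18). Those closest to the miR-125 sum were miR-30a-5p (0.11), miR-101b-3p (0.18) and miR-194-5p (0.18). Each distance rests on 2 ratios that share the mock library, so the order is a description of these 3 libraries.

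A read was taken to start at the arm's usual 5′ end and to match its precursor for at least 16 nt, and any further bases, up to 5, were called a tail. On this measure miR-99a-5p was the most tailed guide of the set, and its tails were mainly a single U, read as T. The forms with most reads are shown because together they make up nearly all of its reads, with the tail in capitals and U written as T.

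untailed, 22 nt: aacccgtagatccgatcttgtg
with 1 U added: aacccgtagatccgatcttgtgT
untailed, 21 nt: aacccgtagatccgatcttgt
with 1 A added: aacccgtagatccgatcttgtgA

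The untailed 22-nt form made up 36.7% of miR-99a-5p reads in TuD-miR-122, 34.2% in TuD-let-7 and 39.9% in mock. The form with 1 added U made up 25.9%, 27.3% and 25.6% in the same order. The 21-nt form made up 22.4%, 22.8% and 19.6%, and the form with 1 added A 9.24%, 9.90% and 8.80%. About 1 read in 4 of this guide thus ended in an added U in every library, decoy or none. T-only tails of any length stood on 26.6% of miR-99a-5p reads in TuD-miR-122, 28.1% in TuD-let-7 and 26.2% in mock, where the median over miRNAs with at least 1000 reads was 6.94%, 7.58% and 7.07%. A higher share was found for 8 of 82 such miRNAs in the first of these libraries, 5 of 49 in the second and 9 of 80 in the third.

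miR-100-5p, with the same 6 bases at its 3′ end, was tailed less often and more with A. T-only tails made up 9.22% in TuD-miR-122, 9.80% in TuD-let-7 and 11.8% in mock, and A-only tails 14.01%, 16.9% and 13.5%, all as shares of miR-100-5p reads. In each library its T-only share was less than 0.5 times that of miR-99a-5p, and its A-only share was above that of miR-99a-5p. miR-99b-5p had T-only tails on 8.52%, 7.18% and 9.52% of its reads and A-only tails on 9.31%, 10.3% and 8.99%. miR-125a-5p and miR-125b-5p had the fewest of both, with T-only tails on 4.90% to 5.99% and A-only tails on 2.59% to 4.56% of reads. The spread of both shares between guides was wider than that of any single guide between libraries. Some added bases could be templated or mistaken: the precursor continues with G after the 22 nt of miR-99a-5p, while A follows the 3′ GUG of both miR-125 guides, so an A there counted as a match and not as a tail.

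**Figure D4:**
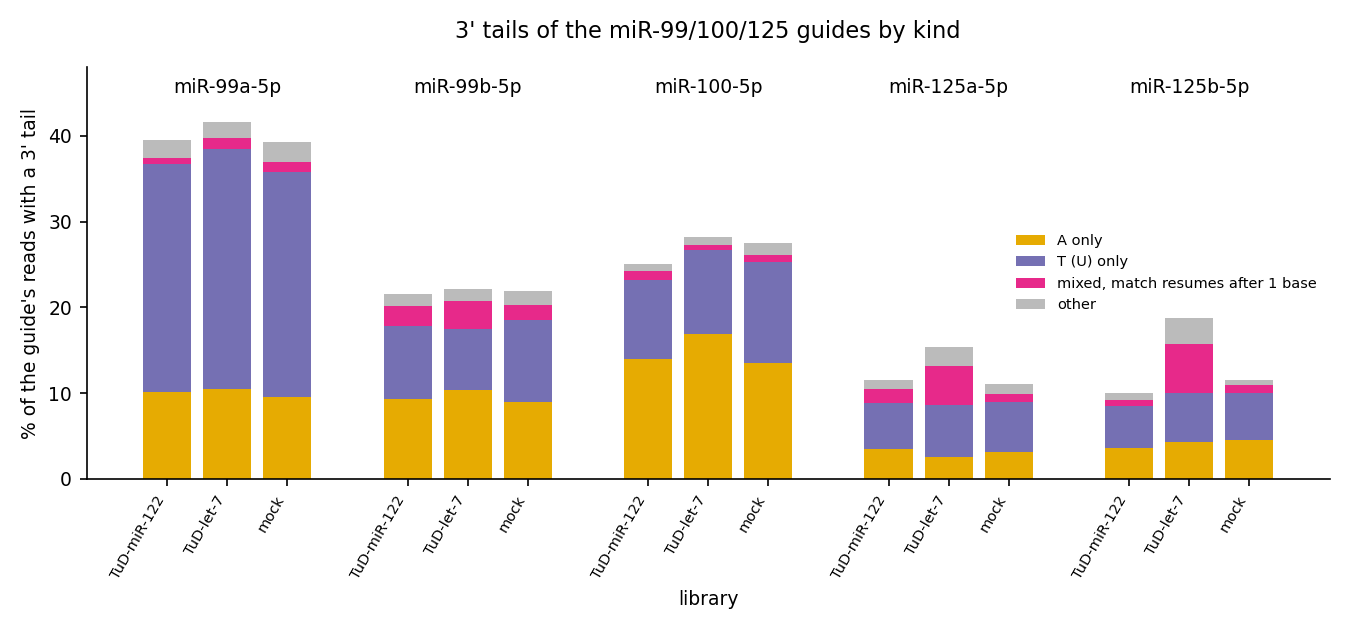
Share of each guide's reads with a 3′ tail, stacked by kind of tail, in the TuD-miR-122, TuD-let-7 and mock libraries. miR-99a-5p carries T-only (U) tails on 26.2% to 28.1% of reads in all 3 libraries, and the class in which the match resumes after 1 base is larger in TuD-let-7 for miR-125a-5p (4.63%, against 0.862% in mock) and miR-125b-5p (5.65%, against 0.831% in mock).

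Among the 5 guides, the share of reads counted as tailed differed most between TuD-let-7 and the other libraries for the miR-125 guides. miR-125b-5p was tailed on 18.8% of reads in TuD-let-7 and 10.02% in TuD-miR-122, against 11.6% in mock. Its 7.23-point difference in TuD-let-7 was not extreme among the 49 miRNAs with enough reads, of which 15 had a larger one, with a median of 2.69 points. The surplus was in tails of 2 to 5 bases, on 10.2% of reads in TuD-let-7, against 2.70% in mock, while 1-base tails stood on 8.56% and 8.87%. A-only tails were no more frequent, at 4.29% in TuD-let-7, against 4.56% in mock, nor were T-only tails by more than 0.25 points.

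Many of the surplus reads carried another base inside the guide rather than added bases at its end. The most frequent of them are shown beside the guide's usual form, with the part called a tail in capitals and each substitution written as the guide's base in DNA letters, the position from the 5′ end and the base in the reads.

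usual form: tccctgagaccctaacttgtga
with G19T: tccctgagaccctaacttTTGA
with G19T and G21T: tccctgagaccctaacttTTTA

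The form with G19T had 232 reads in TuD-let-7 and 7 in TuD-miR-122, against 16 in mock. The form with both substitutions had 108 reads in TuD-let-7 and 0 in TuD-miR-122, against 1 in mock. Both forms had the 22 nt of the untailed guide. Tails of the first kind, in which the match resumed after 1 odd base, stood on 5.65% of miR-125b-5p reads in TuD-let-7 and 0.690% in TuD-miR-122, against 0.831% in mock. For miR-125a-5p they stood on 4.63% in TuD-let-7 and 1.54% in TuD-miR-122, against 0.862% in mock.

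The trimmed share takes in the same reads, since their matching part ends before the odd base. Reads whose matching part was under 21 nt made up 12.8% of miR-125b-5p in TuD-let-7 and 5.99% in TuD-miR-122, against 9.09% in mock. For miR-125a-5p the shares were 7.76% in TuD-let-7 and 2.57% in TuD-miR-122, against 1.94% in mock. For the summed guides they were 8.25% in TuD-let-7 and 4.29% in TuD-miR-122, against 6.28% in mock. When tails of more than 2 nt were left out, which removes both forms shown above, the order of TuD-let-7 and mock turned, with 3.95% trimmed in TuD-let-7 and 3.47% in TuD-miR-122, against 5.02% in mock. miR-99a-5p, without such reads in number, was trimmed on 3.27% of reads in TuD-let-7 and 2.40% in TuD-miR-122, against 3.84% in mock. Untailed miR-125b-5p of 20 nt was most frequent in mock, with 3.51% of reads in TuD-let-7 and 4.69% in TuD-miR-122, against 7.63% in mock.

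**Figure D5:**
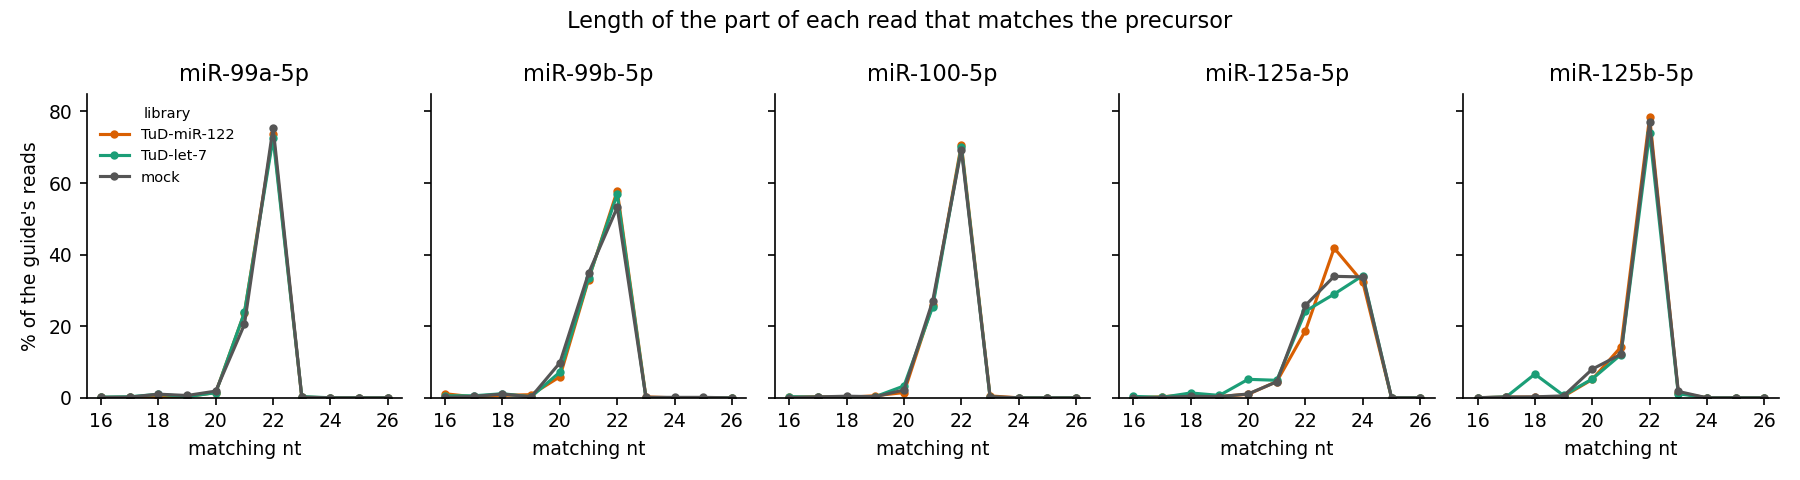
Share of each guide's reads by the number of nt that match the precursor from the guide's 5′ end, in the TuD-miR-122, TuD-let-7 and mock libraries. All curves peak at 22 nt except those of miR-125a-5p, which spread over 22 to 24 nt, and the extra TuD-let-7 point at 18 nt in miR-125b-5p (6.63%, against 0.277% in mock) takes in the forms with G19T.

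Mismatches counted base by base also set the libraries apart. Each substitution is given as a share of the reads with that substitution or an exact match. G19T in miR-125b-5p made up 6.60% in TuD-let-7 and 0.110% in TuD-miR-122, against 0.162% in mock. A17C in miR-125a-5p made up 6.28% in TuD-let-7 and 0.335% in TuD-miR-122, against 0.217% in mock. Both lie in the 3′ part of the guide, outside the seed. Inside the seed of the miR-125 guides, A7C made up 2.19% in miR-125a-5p in TuD-let-7, with 0 reads in TuD-miR-122 and mock. In miR-125b-5p A7C made up 1.30% in TuD-let-7 and 0.0293% in TuD-miR-122, against 0.0147% in mock. A2C, at the first seed base of the miR-99/100 guides, made up 6.44% in miR-99a-5p, 4.51% in miR-99b-5p and 5.25% in miR-100-5p in TuD-let-7. In mock 1 read of miR-99a-5p and no read of the other guides carried it, and in TuD-miR-122 none did. A8C, at the last seed base, made up 3.34% of miR-99a-5p in TuD-let-7 and 0.949% in TuD-miR-122, against 0.975% in mock. G14T was most frequent in TuD-miR-122. It made up 3.01% of miR-99a-5p reads there and 1.26% in TuD-let-7, against 0.159% in mock. In miR-99b-5p it made up 4.00% and 0.877%, against 0.268% in mock, and in miR-100-5p 4.18% and 0.832%, against 0.262% in mock. A14C in miR-125b-5p was at 1.52% in TuD-miR-122 and only 0.122% in TuD-let-7, against 1.67% in mock. A2C and G14T thus each recurred in the 3 guides of the miR-99/100 family, with A2C highest in TuD-let-7 and G14T highest in TuD-miR-122.

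The mismatched reads bear on the levels given above, because exact matching leaves most of them out. With 1 internal mismatch allowed, miR-99a-5p gained 21.9% of reads in TuD-let-7 and 13.4% in TuD-miR-122, against 8.14% in mock. miR-125b-5p gained 13.5% in TuD-let-7 and 12.3% in TuD-miR-122, against 9.70% in mock. On that count the summed guides in TuD-let-7 were at 1.31 times mock, and in TuD-miR-122 at 0.999 times mock.

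The 5′ ends, which set the seed, varied little. Of untailed miR-99a-5p reads, 98.3% in TuD-miR-122, 98.9% in TuD-let-7 and 98.4% in mock began at the usual base. Those beginning 1 base later, which shifts the seed, made up 1.59%, 0.784% and 1.28%. For miR-125b-5p a start 1 base later made up 1.56% in TuD-miR-122, 1.91% in TuD-let-7 and 1.98% in mock, and a start 2 bases later 1.31%, 0.966% and 0.362%. miR-125a-5p varied at the other end: its 23-nt form led in TuD-miR-122 with 37.6% of reads, against 31.0% for the 24-nt form, while in TuD-let-7 the 24-nt form led with 33.2%, against 25.3%, and in mock with 32.4%, against 29.8%. Untailed reads elsewhere on the precursors, such as from the loop, were at most 0.326% of a precursor's reads in any library.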

How the data were processed

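Small RNAs of 18 to 30 nt from mouse liver were sequenced in 3 libraries, 1 per group. Per the labels' protocols, total RNA was extracted with the mirVana kit and short RNAs were gel-purified. The authors deposited raw read counts per distinct insert of 15 to 30 nt; adapter removal and filters were not given in the sources used here. Reads without molecular identifiers may be PCR copies, so intervals and floors cover counting error only.

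Inserts were matched to 1174 precursors of GENCODE mouse release 21 (GRCm38). An arm's start was the most frequent untailed start in the libraries pooled, with a minimum of 10 reads; 3 named arms under it were added. A read had to begin there and match at least 16 nt exactly; up to 5 further bases counted as tail, and a matching part under 21 nt as trimmed. Entries identical over the first 22 nt were merged. Reads that fitted several entries equally made up 0.334% (TuD-miR-122), 0.318% (TuD-let-7) and 0.314% (mock) of miRNA reads. They were left out of the counts of single miRNAs. The total of all miRNA reads kept them, and the non-target total kept those that fitted any non-target entry. Ratios have exact conditional-binomial intervals, shares exact Clopper-Pearson intervals and quotients of ratios conditional odds-ratio intervals, all at 95%. Tail shares were ranked where a miRNA had 1000 reads or more. Named miRNAs were the 5 guides, their passengers, the let-7 arms of the same clusters, miR-10a-5p, miR-10b-5p, miR-351-5p and the 3 miRNAs nearest in pattern to each family sum. The members and lists were chosen with earlier results of these data known. Alternatives covered scaling, start window, annotated starts, matching length, mismatches, inserts read once, tail length, trimming limit, tail kind and read minimum. The counting code was tested on simulated data. Python 3.11, numpy 2.4.6, scipy 1.17.1 and matplotlib 3.10.9 were used.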

Additional observations from a re-analysis of the deposited data

How the results depend on the processing

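No paired analysis was possible because each group had 1 library, and for the same reason no replicate could be left out. The count of guides past 2-fold was 0 under every alternative tried in all 3 comparisons. The summed guide level depended on the scale. Scaled to all reads it was 0.828 in TuD-let-7 over mock and 0.864 in TuD-let-7 over TuD-miR-122. Scaled to all miRNA reads it was 1.04 in TuD-miR-122 over mock, 0.889 in TuD-let-7 over mock and 0.851 in TuD-let-7 over TuD-miR-122. With size factors it was 1.02 in TuD-miR-122 over mock, 1.38 in TuD-let-7 over mock and 1.35 in TuD-let-7 over TuD-miR-122. With 1 internal mismatch it was 0.999 in TuD-miR-122 over mock, 1.31 in TuD-let-7 over mock and 1.31 in TuD-let-7 over TuD-miR-122; the cause was not tested.

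Single arms turned as well. In TuD-let-7 over mock, the values on all reads and on all miRNA reads were 0.879 and 0.943 for miR-99a-5p, 0.768 and 0.825 for miR-99b-5p, 0.652 and 0.699 for miR-100-5p, 0.859 and 0.922 for miR-125b-5p, and 0.828 and 0.889 for miR-125b-2-3p. In TuD-let-7 over TuD-miR-122 they were 0.965 and 0.9502 for miR-99a-5p, 0.913 and 0.899 for miR-125b-5p, and 0.933 and 0.919 for miR-125b-2-3p. On all miRNA reads miR-125b-5p was at 1.03 in TuD-miR-122 over mock. The scales differ by the reads of miR-122, let-7 and other RNAs in the total.

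Shares are given in the order TuD-miR-122, TuD-let-7 and mock. The trimmed share was 5.10%, 8.90% and 6.66% with starts within 2 nt, 4.03%, 7.76% and 5.99% without inserts read once, 4.00%, 6.59% and 5.97% with 1 mismatch, 3.47%, 3.95% and 5.02% with tails of at most 2 nt, and 1.04%, 4.59% and 1.42% below 20 nt. With matches of at least 18 nt it was 3.99% in TuD-miR-122. The tailed share was 21.5%, 25.0% and 22.2% with tails of at most 2 nt, 6.76%, 7.38% and 6.93% for A-only tails, and 21.7% (TuD-miR-122) and 27.3% (TuD-let-7) with 1 mismatch. Of 417 alternative values for single arms and other shares, 306 moved by less than their counting interval, 94 moved further and 17 turned to the other side of 1. Of the 99 for the counts past 2-fold and the summed guides, 65 stayed, 28 moved and 6 turned.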
